A study of Mus musculus with 87 samples.

Results

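A set of 7 genes that restrain the cell cycle or belong to the p53 pathway were followed in mouse embryonic stem cells that lacked subunits of Polycomb repressive complex 2 (PRC2). They were chosen by name: the Cdk inhibitors Cdkn2a, Cdkn2b, Cdkn2c, Cdkn1a and Cdkn1b, then Trp53 and its regulator Mdm2. Their Ensembl identifiers are, in that order, ENSMUSG00000044303, ENSMUSG00000073802, ENSMUSG00000028551, ENSMUSG00000023067, ENSMUSG00000003031, ENSMUSG00000059552 and ENSMUSG00000020184. They were matched among 55450 identifiers in the RNA count files, and all 7 were among the 14650 identifiers with enough reads to be tested. RNA had been sequenced in 24 libraries, 3 for each of 8 genotypes: WT, a loss of the core subunit (Suz12 KO) and 6 losses of accessory subunits. Of these, Pcl1-3 KO and Pcl1-3 + Epop KO lack proteins of one form of the complex, PRC2.1, and Jarid2 + Aebp2 KO lacks proteins of the other, PRC2.2. The last 3 cut into both forms: Pcl1-3 + Jarid2 KO, the same with Aebp2 lost too (Pcl1-3 + Jarid2 + Aebp2 KO), and finally with Epop lost as well, Pcl1-3 + Jarid2 + Aebp2 + Epop KO. All cells grew on gelatin in 2i medium, which contains kinase inhibitors that hold stem cells in the naive state. The series also gives peak lists for 3 proteins of the complex, SUZ12, JARID2 and PCL2.

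The strain label ends in a number that differs for each genotype, so that strain and genotype cannot be told apart as labelled. Whether these numbers mark different strains is not known. Whether replicates are separate cultures, and whether a knockout is 1 clone, is not in the labels. The p-values therefore cover no more than library-to-library spread, which may be technical. Total counts ran from 10148155 to 28442061 per library. Symbols were paired only with the identifiers of the 7 genes, so the loss of the targeted genes and the markers of stem cells or other cell types were not analysed here in the RNA. Fewer cells of a type and less RNA per cell cannot be told apart in these bulk samples.

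The Ink4 proteins, encoded by Cdkn2a, Cdkn2b and Cdkn2c, bind Cdk4 and Cdk6 and keep them from phosphorylating the retinoblastoma protein. The Cip/Kip proteins, p21 from Cdkn1a and p27 from Cdkn1b, bind a wider range of cyclin-Cdk complexes. Trp53 encodes the transcription factor p53, which activates Cdkn1a and Mdm2, while the Mdm2 protein marks p53 for degradation, so that p53 activity is set largely at the protein level. Cdkn2a has 2 start sites: the upstream one gives Arf, which blocks Mdm2, and the downstream one gives p16Ink4a. PRC2 methylates lysine 27 of histone H3, and the locus of Cdkn2a and Cdkn2b is a textbook target of it in fibroblasts. SUZ12 is a core subunit. The Pcl proteins (PCL2 is also called Mtf2), with Epop, belong to PRC2.1, and Jarid2 with Aebp2 to PRC2.2.

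The Ink4 genes held every peak found near these 7 genes. With peaks counted within 1 kb of a gene, SUZ12 peaks lay at Cdkn2a and Cdkn2c, a JARID2 peak lay at Cdkn2c, and PCL2 peaks lay at Cdkn2a, Cdkn2b and Cdkn2c. These are 2, 1 and 3 of the 7 genes. Of 21887 protein-coding genes, 24.2% had a SUZ12 peak, 14.3% a JARID2 peak and 42.0% a PCL2 peak by the same rule, so that the counts among the 7 genes are near what genes at large show. The peak lists hold positions only, with no heights and no replicates, and say nothing of occupancy below the authors' threshold. Promoter sequences of the start sites that the peaks bear on are given here from RefSeq (GRCm38.p6, whose chromosome coordinates are those of mm10), each as the 250 bases before the start site, read 5′ to 3′ on the strand of the gene. Capitals mark bases inside a SUZ12 peak in the Arf and Cdkn2c sequences and inside a PCL2 peak in the p16Ink4a sequence, and the Cdkn2b sequence has no base in a peak.
Cdkn2a, Arf start: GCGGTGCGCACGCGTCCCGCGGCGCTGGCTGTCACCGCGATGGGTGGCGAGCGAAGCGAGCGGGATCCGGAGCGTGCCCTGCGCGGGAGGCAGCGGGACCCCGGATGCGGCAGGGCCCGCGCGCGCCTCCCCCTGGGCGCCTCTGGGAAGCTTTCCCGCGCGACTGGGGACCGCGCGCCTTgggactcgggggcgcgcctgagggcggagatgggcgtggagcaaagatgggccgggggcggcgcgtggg
Cdkn2a, p16Ink4a start: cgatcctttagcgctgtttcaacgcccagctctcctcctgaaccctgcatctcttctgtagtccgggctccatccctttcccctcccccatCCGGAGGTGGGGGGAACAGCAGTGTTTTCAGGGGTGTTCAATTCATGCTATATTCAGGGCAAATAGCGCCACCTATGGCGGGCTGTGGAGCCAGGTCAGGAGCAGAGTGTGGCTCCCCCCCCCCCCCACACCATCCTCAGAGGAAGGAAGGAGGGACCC
Cdkn2b: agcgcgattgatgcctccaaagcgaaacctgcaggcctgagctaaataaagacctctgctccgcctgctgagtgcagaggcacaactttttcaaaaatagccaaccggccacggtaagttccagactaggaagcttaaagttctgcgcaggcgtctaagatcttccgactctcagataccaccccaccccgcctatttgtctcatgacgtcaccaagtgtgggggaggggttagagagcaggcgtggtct
Cdkn2c, first start: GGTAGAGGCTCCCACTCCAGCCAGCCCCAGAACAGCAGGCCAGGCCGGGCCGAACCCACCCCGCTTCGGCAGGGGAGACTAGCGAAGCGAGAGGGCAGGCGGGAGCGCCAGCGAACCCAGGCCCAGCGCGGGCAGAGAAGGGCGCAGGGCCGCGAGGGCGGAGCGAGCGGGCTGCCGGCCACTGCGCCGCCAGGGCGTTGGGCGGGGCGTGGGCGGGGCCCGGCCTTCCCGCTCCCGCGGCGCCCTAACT
Cdkn2c, second start: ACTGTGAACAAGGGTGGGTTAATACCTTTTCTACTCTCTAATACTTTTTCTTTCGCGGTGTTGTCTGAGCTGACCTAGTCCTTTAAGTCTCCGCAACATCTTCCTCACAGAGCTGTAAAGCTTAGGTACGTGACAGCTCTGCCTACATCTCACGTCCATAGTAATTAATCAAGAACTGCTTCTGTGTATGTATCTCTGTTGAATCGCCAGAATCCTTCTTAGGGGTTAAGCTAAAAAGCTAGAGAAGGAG

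Cdkn2a lies on the minus strand of chromosome 4 (89274473 to 89294619). The Arf window (chr4:89294620-89294869) has 181 bases in a SUZ12 peak and all 250 in a PCL2 peak. That SUZ12 peak is 1122 bp wide and begins 70 bp upstream of the Arf start. Its window holds 40 CpG dinucleotides, and 1.31% of 32851 promoter windows of this length hold at least as many, against a median of 6. The p16Ink4a start lies 12.4 kb downstream, and its window (chr4:89282193-89282442) holds 7 CpG, which 46.3% of windows reach. A PCL2 peak of 926 bp covers that start with 159 bases of the window, and no SUZ12 peak touches it. A further 2 SUZ12 peaks, of 1576 and 1915 bp, lie at the 3′ end of the gene, each overlapped by a PCL2 peak. The nearest JARID2 peak is 230 kb away. At Cdkn2a the 3 peaks of SUZ12 thus sit just upstream of the Arf start and over the end of the gene. The upstream peak also reaches into Gm12610, a long noncoding RNA gene 561 bp from Cdkn2a. It cannot be assigned to one of the 2 genes from its position.

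Cdkn2b (chromosome 4, 89306289 to 89311032, minus strand) has a single narrow PCL2 peak of 371 bp, which starts 536 bp inside the gene. Its promoter window (chr4:89311033-89311282) holds 12 CpG, and the nearest SUZ12 peak is the one at Arf, 10.5 kb away. The long noncoding RNA gene Gm12610 spans all 4744 bp of Cdkn2b in RefSeq, and reads from the pair cannot be told apart if the counting ignored strand.

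Cdkn2c (chromosome 4, 109660876 to 109666756, minus strand) was the one gene of the 7 with all 3 proteins. A SUZ12 peak of 2274 bp and a PCL2 peak of 2226 bp cover both of its start sites, which are 1.38 kb apart. The JARID2 peak of 1215 bp covers the second start and ends 541 bp short of the first. The first window (chr4:109666757-109667006) holds 29 CpG, a count that 6.78% of windows reach, and the second (chr4:109665373-109665622) holds 6. The sequence GGGCGG, counted on both strands, occurs 3 times in the first window and not in the second, and 32.7% of all windows hold it.

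**Figure D1:**
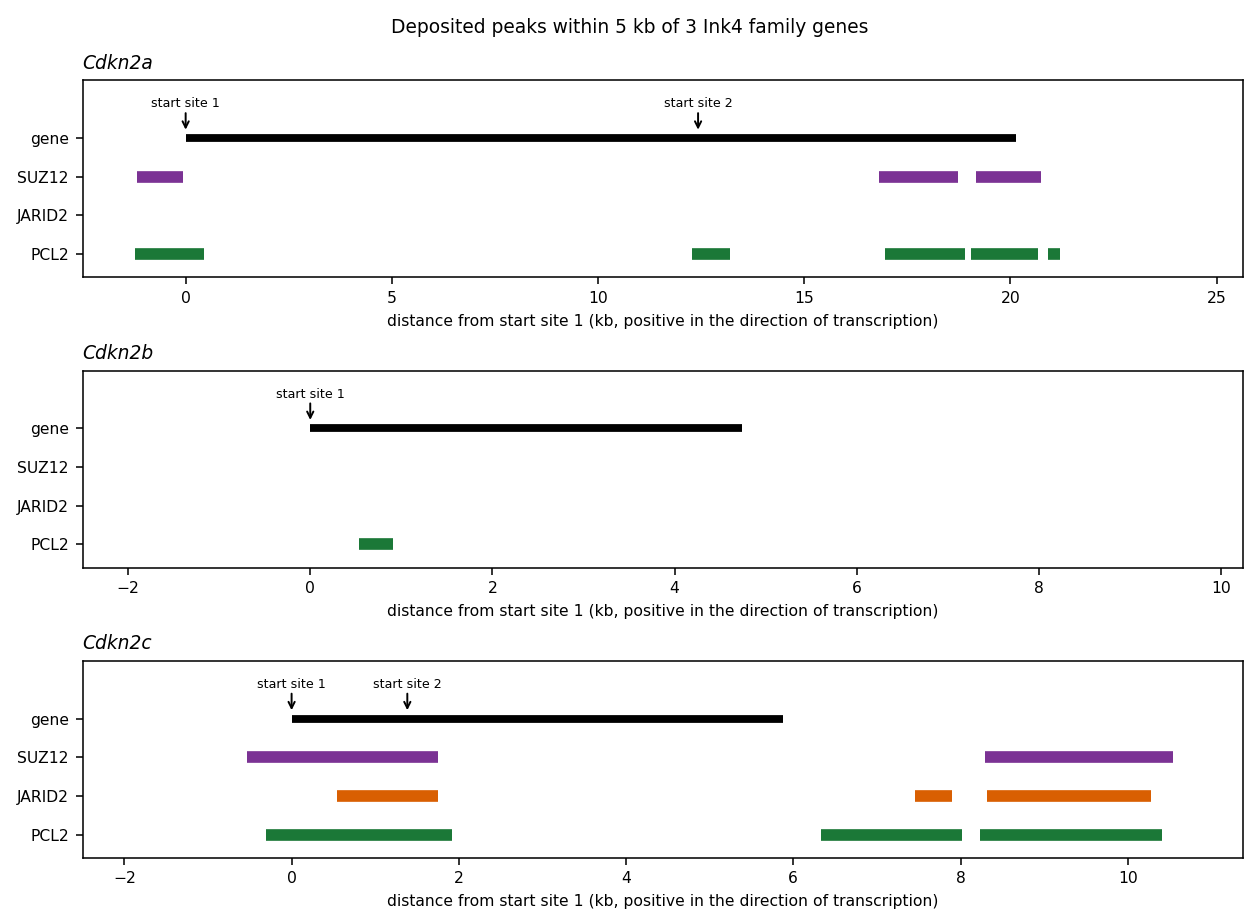
Deposited SUZ12, JARID2 and PCL2 peaks within 5 kb of Cdkn2a, Cdkn2b and Cdkn2c, drawn as distance from the first start site in kb along the direction of transcription; black bars are the genes and arrows the start sites. SUZ12 covers the first start of Cdkn2c, lies just upstream of the Arf start of Cdkn2a, and is absent from the list at the second start of Cdkn2a and at Cdkn2b.

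The Cip/Kip genes, Trp53 and Mdm2 had no peak within 1 kb. Their nearest SUZ12 peaks were 136 kb from Cdkn1a, 57.7 kb from Cdkn1b, 13.0 kb from Trp53 and 35.3 kb from Mdm2. Cdkn1a (chromosome 17, 29090979 to 29100722, plus strand) has 2 start sites 2.79 kb apart. The window before the first (chr17:29090729-29090978) is shown because it holds a p53 response element, marked in capitals, that begins 51 bases before the start.
Cdkn1a, first start: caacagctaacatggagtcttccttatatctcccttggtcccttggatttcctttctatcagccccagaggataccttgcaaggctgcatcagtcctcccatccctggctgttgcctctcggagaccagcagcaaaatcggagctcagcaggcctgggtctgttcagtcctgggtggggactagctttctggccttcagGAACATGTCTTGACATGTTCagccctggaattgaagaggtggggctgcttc
The element was searched as a pair of p53 half-sites with no spacer and at most 1 mismatch, a search chosen after the sequence had been seen. The match shown has 1 mismatch. Such an element was present in 25 of 32851 promoter windows (0.0761%) and in none of the other windows of the 7 genes. Only these windows before start sites were searched, so elements elsewhere in or near the genes were not looked for. The window before the first Cdkn1a start holds 2 CpG and the window before its second start holds 19. The windows of Cdkn1b (chromosome 6, plus strand) and Mdm2 (chromosome 10, minus strand) hold 28 and 29. That of Trp53 (chromosome 11, plus strand) holds 9.

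Related genes were looked up in the same peak lists. Beside these counts stand the shares of all protein-coding genes: 24.2% with SUZ12, 14.3% with JARID2 and 42.0% with PCL2. No list was tested against them. Of 3 other Cdk inhibitors, Cdkn1c, an imprinted inhibitor of the Cip/Kip family, had peaks of all 3 proteins. Among 22 cyclins, Cdks and members of the retinoblastoma pathway, 3 had a SUZ12 peak (Ccnd2, Cdk6 and Rb1), 1 JARID2 and 11 PCL2. Ccnd2 encodes cyclin D2 and Cdk6 one of the kinases that Ink4 proteins bind. Of 18 p53 family members and regulators, 2 had SUZ12 (Ing1 and Trp73, a p53 paralogue), 1 JARID2 and 8 PCL2. Of 28 p53 target genes, 7 had SUZ12, among them Perp, Phlda3, Plk2 and Pmaip1, with 3 carrying JARID2 and 12 PCL2. Among 16 genes listed with the Cdkn2a locus, its known regulators and Mtap, 8 had SUZ12, 6 JARID2 and 10 PCL2. They include Bmi1 and Cbx8, subunits of Polycomb repressive complex 1, and the transcription factors Ets1 and Ets2.

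In RNA, the changes were gene by gene. Values are read counts scaled to a common library size with TMM factors (CPM), differences are log2 fold changes ± standard error, and a gene is said to rise or fall where edgeR's quasi-likelihood test gave a Benjamini-Hochberg adjusted p under 0.05 over all 14650 identifiers. Against WT, 2 of 7 genes changed in Suz12 KO, where 39.1% of all identifiers did. None of 7 changed in Pcl1-3 KO by edgeR, against 8.70% of identifiers, with 2 genes at an unadjusted p under 0.05 and 1 called by DESeq2. In Pcl1-3 + Epop KO 2 changed against 7.61%, in Jarid2 + Aebp2 KO 1 against 4.39%, and in Pcl1-3 + Jarid2 KO 2 against 17.2%. In Pcl1-3 + Jarid2 + Aebp2 KO 3 changed against 15.0%, and in Pcl1-3 + Jarid2 + Aebp2 + Epop KO 1 against 32.9%. The median log2 fold change of the 7 genes lay between 0.06 and 0.31 in these 7 comparisons, beside -0.02 to 0.01 for all identifiers tested. All 7 comparisons share the 3 WT libraries.

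**Figure D2:**
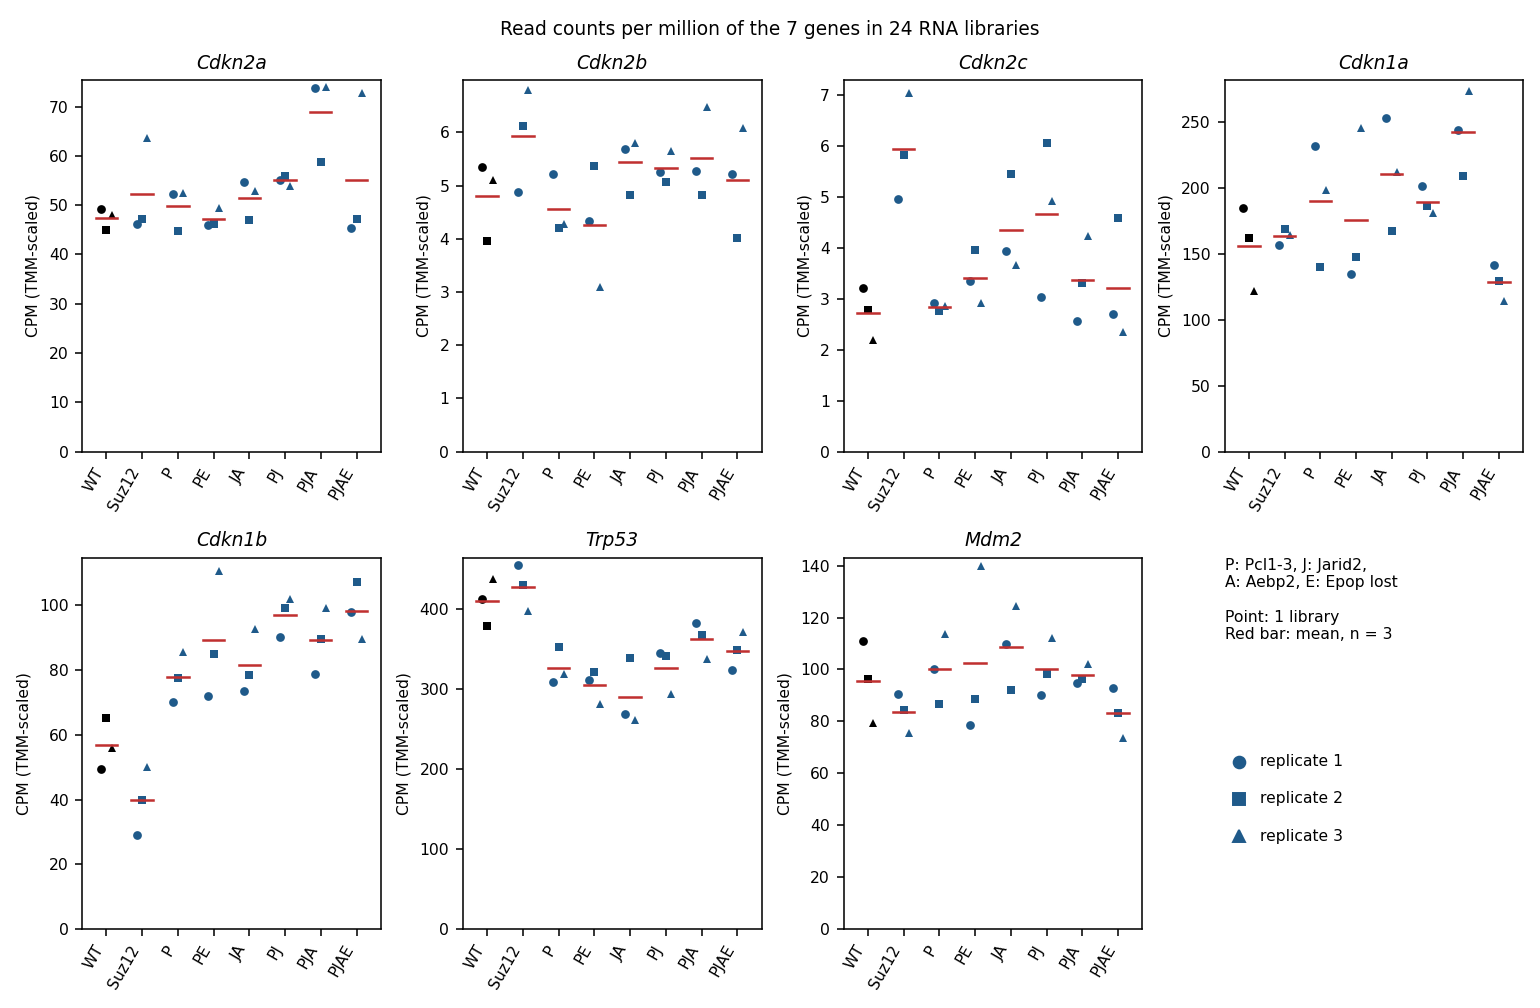
CPM of each gene (vertical axes, from 0) in the 24 libraries, 3 per genotype; shapes give the replicate number, black points are WT and red bars are means of 3. Cdkn1b libraries of the 6 knockouts of accessory subunits lie above all WT libraries, Cdkn2c is highest in Suz12 KO, and Trp53 is lower than in WT in most of the accessory knockouts.

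**Figure D3:**
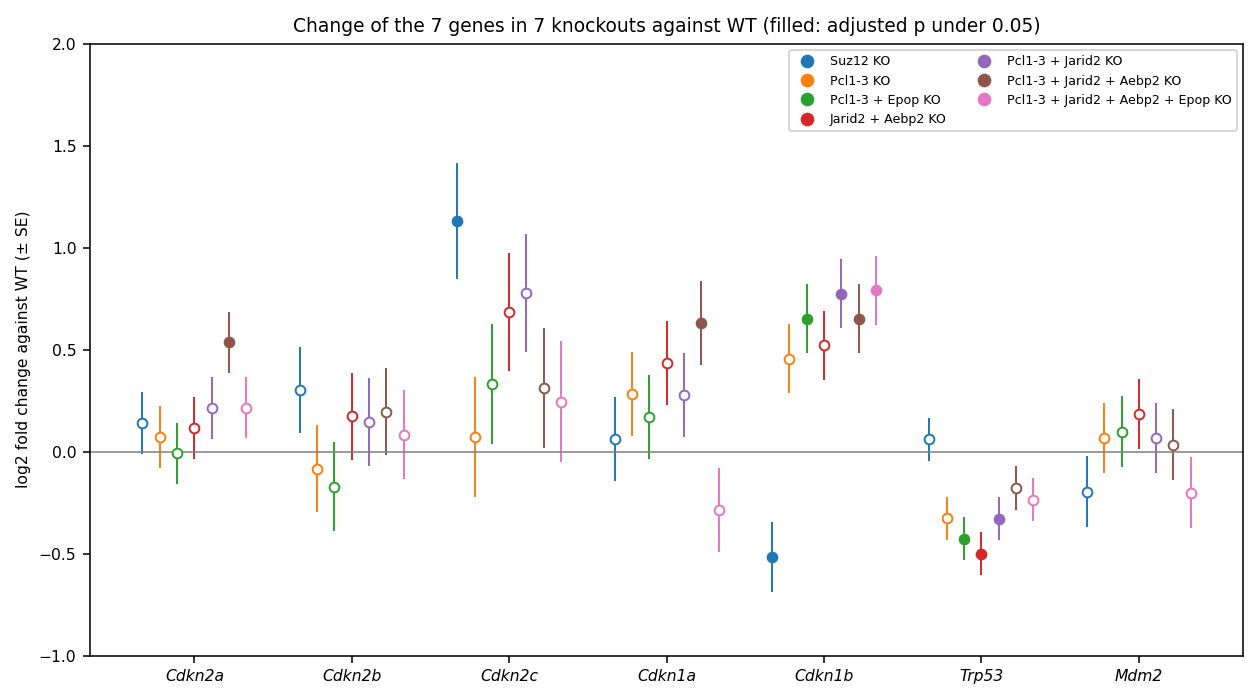
Log2 fold change against WT (vertical axis, ± SE from edgeR) of the 7 genes in the 7 knockouts; filled points passed an adjusted p under 0.05 over all identifiers. Cdkn2c is at 1.13 in Suz12 KO, Cdkn1b is at -0.52 there and between 0.46 and 0.79 in the other knockouts, and no point of Cdkn2b or Mdm2 is filled.

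Cdkn2c, which encodes p18Ink4c, rose in Suz12 KO. Its WT libraries had 3.21, 2.78 and 2.18 CPM and its Suz12 KO libraries 4.95, 5.82 and 7.04 CPM. Every Suz12 KO library was above every WT library, a pattern that 28.5% of identifiers showed in this comparison. The mean went from 2.73 ± 0.52 to 5.94 ± 1.05 CPM (SD, n = 3 each), a log2 fold change of 1.13 ± 0.29 (edgeR, Benjamini-Hochberg adjusted p = 0.00333). The call held in each of 12 alternatives, with adjusted p between 0.000572 and 0.0245 by edgeR or DESeq2. Cdkn2c is a low-count gene here, with 28 to 114 reads per library.

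Among the accessory knockouts, Pcl1-3 + Jarid2 + Aebp2 + Epop KO was the one tested against Suz12 KO. Its Cdkn2c was lower. The Pcl1-3 + Jarid2 + Aebp2 + Epop KO libraries had 2.69, 4.57 and 2.34 CPM, all below the lowest Suz12 KO library, as for 26.6% of identifiers. Their mean of 3.20 ± 1.20 CPM (SD, n = 3) was lower than in Suz12 KO by a log2 fold change of -0.89 ± 0.29 (edgeR, adjusted p = 0.0138), in a comparison in which 3 of the 7 genes and 43.0% of identifiers changed. That call was lost without replicate 3 of Suz12 KO (adjusted p = 0.0651) or replicate 3 of the other genotype (0.0795). The means of the remaining 5 knockouts ran from 2.85 CPM in Pcl1-3 KO to 4.67 CPM in Pcl1-3 + Jarid2 KO. Libraries of Jarid2 + Aebp2 KO, at up to 5.45 CPM, and of Pcl1-3 + Jarid2 KO overlapped those of Suz12 KO, and these differences were not tested. In Pcl1-3 + Jarid2 KO the libraries were far apart, at 3.02, 6.06 and 4.91 CPM, and the difference from WT did not pass the test (edgeR, adjusted p = 0.0687). It passed without that genotype's replicate 1 (adjusted p = 0.0237).

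Cdkn2a, counted over both of its products, was higher in Pcl1-3 + Jarid2 + Aebp2 KO. WT libraries had 49.3, 44.9 and 48.0 CPM and the knockout had 73.7, 58.8 and 73.9 CPM. The groups did not overlap, which was so for 19.1% of identifiers in the upward direction. The log2 fold change was 0.54 ± 0.15 (edgeR, adjusted p = 0.0183). The call was lost without WT replicate 2 or 3 or the knockout's replicate 1 or 3, with adjusted p between 0.0545 and 0.0756. Reads were counted per gene, so Arf and p16Ink4a transcripts cannot be told apart.

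In Suz12 KO, Cdkn2a had 46.1, 47.1 and 63.6 CPM, so 2 libraries lay within the WT range and 1 above it. The difference of 0.14 ± 0.15 on the log2 scale did not pass the test (edgeR, adjusted p = 0.485), and without replicate 3 it was -0.04. Pcl1-3 + Jarid2 + Aebp2 + Epop KO showed the same layout, with 45.4, 47.2 and 72.8 CPM. Its difference from WT was 0.22 (edgeR, adjusted p = 0.287), and -0.04 without replicate 3. In both genotypes the high value came from the library numbered 3. Over all 8 genotypes the Cdkn2a mean ran from 47.1 CPM in Pcl1-3 + Epop KO to 68.8 CPM in Pcl1-3 + Jarid2 + Aebp2 KO, a ratio of 1.46, and no neighbours in that order had library ranges that were apart.

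Cdkn2b, which encodes p15Ink4b, passed no test. It had 5.36, 3.97 and 5.10 CPM in WT and 4.88, 6.12 and 6.80 CPM in Suz12 KO, and these ranges overlapped. The log2 fold change was 0.30 ± 0.21 (edgeR, adjusted p = 0.275). Its means ran from 4.27 CPM in Pcl1-3 + Epop KO to 5.93 CPM in Suz12 KO, with 36 to 121 reads per library.

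Cdkn1b moved in opposite directions in Suz12 KO and in the knockouts of accessory subunits. WT libraries had 49.3, 65.0 and 56.1 CPM. Suz12 KO libraries had 29.1, 39.8 and 50.2 CPM, of which 1 lay inside the WT range. At each replicate number the Suz12 KO library was below the WT library. How many identifiers show this was not counted, and the labels do not make the numbers pairs. The log2 fold change was -0.52 ± 0.17 (edgeR, adjusted p = 0.0206). This fall was not called without WT replicate 2 (adjusted p = 0.096), without Suz12 KO replicate 1 (0.14) or with scaling by library size alone (0.0979).

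In the 6 other knockouts every Cdkn1b library, from 70.2 CPM upward, lay above the highest WT library. The share of identifiers that lay wholly above WT was 17.1% in Pcl1-3 KO, 13.0% with Epop also lost, 16.0% in Jarid2 + Aebp2 KO and 22.2% in Pcl1-3 + Jarid2 KO. It was 19.1% with Aebp2 also lost and 23.4% with Epop lost as well. Pcl1-3 + Jarid2 KO had 90.2, 99.1 and 102.1 CPM, a rise of 0.77 ± 0.17 on the log2 scale (edgeR, adjusted p = 0.00306). Pcl1-3 + Jarid2 + Aebp2 + Epop KO had 97.9, 107.3 and 89.5 CPM, the highest mean of the 8 genotypes, and rose by 0.79 ± 0.17 (edgeR, adjusted p = 0.00119). Both calls held in each of 12 alternatives.

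Cdkn1b also rose in Pcl1-3 + Epop KO, by 0.65 ± 0.17 (edgeR, adjusted p = 0.0212), and in Pcl1-3 + Jarid2 + Aebp2 KO, by 0.65 ± 0.17 (edgeR, adjusted p = 0.0111). The first call was lost without WT replicate 1 or 3 or the knockout's replicate 3, with adjusted p from 0.0719 to 0.151, and in a fit of only the 2 genotypes compared (0.14). The second was lost without WT replicate 1 (0.071) or the knockout's replicate 3 (0.0592). In Pcl1-3 KO and Jarid2 + Aebp2 KO the means were 77.8 and 81.6 CPM, and the differences of 0.46 and 0.52 did not pass the test (edgeR, adjusted p = 0.0986 and 0.0818). The first passed without a filter on low counts (0.0169) and in a fit of only the 2 genotypes (0.0398). The second passed in both of these (0.00654 and 0.0435) and with DESeq2 (0.0488). With the replicate number as a block, both differences passed (edgeR, adjusted p = 0.0113 and 0.00603). Among neighbours in the order of means, WT and Pcl1-3 KO were the only pair with library ranges apart. Farther apart in that order, all Pcl1-3 KO libraries (70.2 to 85.6 CPM) lay below those of Pcl1-3 + Jarid2 KO and of Pcl1-3 + Jarid2 + Aebp2 + Epop KO. The share of identifiers with this pattern is not given here. The difference from Pcl1-3 + Jarid2 KO, 0.32 ± 0.17, did not pass the test (edgeR, adjusted p = 0.317). That from Pcl1-3 + Jarid2 + Aebp2 + Epop KO was not tested.

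Set directly against Suz12 KO, Cdkn1b was 2.47-fold higher in Pcl1-3 + Jarid2 + Aebp2 + Epop KO. The means were 39.7 ± 10.5 and 98.3 ± 8.89 CPM (SD, n = 3 each), and the log2 fold change was 1.31 ± 0.17 (edgeR, adjusted p = 3.91e-06). The call held in each of 12 alternatives, with log2 fold changes between 1.12 and 1.51. All 3 libraries lay above all Suz12 KO libraries, as did 24.9% of identifiers in this comparison.

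Cdkn1b and Cdkn2c had the widest ranges of genotype means among the 7 genes, 1.34 and 1.09 on the log2 CPM scale. The identifiers most like Cdkn1b over the 8 genotype means were ENSMUSG00000019210.10 (Pearson r = 0.991) and ENSMUSG00000002910.11 (r = 0.987), both lower in Suz12 KO than in WT, for example 114 against 161 CPM for the first. Those most like Cdkn2c were ENSMUSG00000025418.7 (r = 0.981) and ENSMUSG00000087141.1 (r = 0.942). The former was near the floor, at 0.024 CPM in WT, 0.954 in Suz12 KO and 0.026 in Pcl1-3 + Jarid2 + Aebp2 + Epop KO. The last went from 2.25 CPM in WT to 6.27 in Suz12 KO and was at 2.88 in Pcl1-3 + Jarid2 + Aebp2 + Epop KO. These r values rank many identifiers over 8 points and are descriptions only.

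Cdkn1a, which encodes p21, was highest in Pcl1-3 + Jarid2 + Aebp2 KO and lowest once Epop was lost as well. WT libraries had 185, 162 and 122 CPM. Pcl1-3 + Jarid2 + Aebp2 KO had 243, 209 and 273 CPM, all above WT, and rose by 0.63 ± 0.21 on the log2 scale (edgeR, adjusted p = 0.0416). That call was lost without WT replicate 2 (0.0839) or 3 (0.203) and without the knockout's replicate 1 (0.077) or 3 (0.16).

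Adding the loss of Epop, Cdkn1a had 141, 129 and 114 CPM. Each of these libraries was below the lowest of Pcl1-3 + Jarid2 + Aebp2 KO, as for 13.4% of identifiers, and 2 lay within the WT range. Cdkn1a was 1 of 7 genes that changed at this step, where 11.2% of identifiers did. The mean went from 242 ± 32.2 to 128 ± 13.6 CPM (SD, n = 3 each), a log2 fold change of -0.92 ± 0.21 (edgeR, adjusted p = 0.00532). It held in each of 12 alternatives. Cdkn2a at this step had a log2 fold change of -0.32 (edgeR, adjusted p = 0.184), which became -0.58 (0.00813) without replicate 3 of the genotype that also lacks Epop.

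Losing Epop from Pcl1-3 KO cells gave no such drop in Cdkn1a: the libraries had 231, 140 and 198 CPM before and 134, 147 and 245 CPM after, and the ranges overlapped. The 2 effects of losing Epop differed by -0.81 ± 0.29 on the log2 scale. This did not pass a test added after seeing the data (edgeR, adjusted p = 0.189). None of the 7 genes passed it, 1 (Cdkn1a) had an unadjusted p under 0.05, and 2.09% of identifiers passed. Without a filter on low counts the same difference had an adjusted p of 0.00174. None of the 7 genes changed between Pcl1-3 + Epop KO and Pcl1-3 KO, where 0.00683% of identifiers did. None changed between Pcl1-3 + Jarid2 KO and Pcl1-3 KO (6.27% of identifiers), or when Aebp2 was lost as well (0.901%). At an unadjusted p under 0.05, edgeR counted 0, 1 and 1 of the 7 genes in these 3 steps, namely Cdkn2c at the second and Cdkn2a at the third, and DESeq2 called 0 in each.

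Trp53 fell in 3 knockouts. WT libraries had 412, 379 and 438 CPM. Jarid2 + Aebp2 KO had 269, 339 and 261 CPM, all below WT, and fell by 0.50 ± 0.11 on the log2 scale (edgeR, adjusted p = 0.012). Of all identifiers, 14.4% lay wholly below WT there. The call was lost without WT replicate 1 (0.0647) or the knockout's replicate 1 (0.0607) or 3 (0.101).

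Pcl1-3 + Epop KO had 311, 322 and 281 CPM of Trp53 and fell by 0.43 ± 0.11 (edgeR, adjusted p = 0.0157). Pcl1-3 + Jarid2 KO had 345, 341 and 293 CPM and fell by 0.33 ± 0.11 (edgeR, adjusted p = 0.0367). Each of these libraries was below every WT library, as was so for 12.6% and 21.4% of identifiers. The first call was lost without WT replicate 1 or 3 or the knockout's replicate 3 (adjusted p from 0.0597 to 0.0926), and in a fit of only the 2 genotypes compared (0.104). The second was lost without WT replicate 1 or 3 or the knockout's replicate 2 or 3 (0.0619 to 0.185), and without a filter on low counts (0.12). Pcl1-3 KO had 308, 353 and 319 CPM, a log2 fold change of -0.33 that did not pass the test (edgeR, adjusted p = 0.0584), although its libraries too lay below WT, as 15.5% of identifiers did. It passed without its replicate 2 (0.0438), in a fit of only the 2 genotypes (0.0372), with DESeq2 (0.0181) and with both other scalings (0.0479 and 0.0494).

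In Suz12 KO, Trp53 had 455, 430 and 398 CPM, which overlapped WT and did not pass the test (edgeR, adjusted p = 0.684). Pcl1-3 + Jarid2 + Aebp2 + Epop KO, at 324, 349 and 371 CPM, was lower than Suz12 KO by a log2 fold change of -0.30 ± 0.11 (edgeR, adjusted p = 0.0278). This was not called without replicate 1 or 2 of Suz12 KO or replicate 1 of the other genotype (adjusted p from 0.0658 to 0.0899), without a filter on low counts (0.0773), or in a fit of only the 2 genotypes (0.05 as rounded). A processed copy of Trp53 exists in the mouse genome, and reads that fit both were not examined here.

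The loss of Jarid2 and Aebp2 went with lower Trp53 in WT cells and not in Pcl1-3 KO cells. The means were 410 ± 29.4 CPM in WT and 290 ± 42.7 in Jarid2 + Aebp2 KO, against 327 ± 23.4 in Pcl1-3 KO and 362 ± 22.9 in Pcl1-3 + Jarid2 + Aebp2 KO (SD, n = 3 each). The effects differed by 0.65 ± 0.15 on the log2 scale (edgeR, adjusted p = 0.0121), in a test that 7.36% of identifiers passed. The call held in each of 17 alternatives, with adjusted p between 0.000645 and 0.0485. Of the 7 genes, Trp53 was the only one for which this difference passed. The test was added after seeing the data, and its adjusted p does not cover that choice.

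Mdm2, the ubiquitin ligase that acts on p53, passed no test against WT or between knockouts. Its WT libraries had 111, 96.5 and 79.4 CPM, and its means ran from 83.2 CPM in Pcl1-3 + Jarid2 + Aebp2 + Epop KO to 109 CPM in Jarid2 + Aebp2 KO. The ratio of these means was 1.31, the smallest of the 7 genes. Pcl1-3 + Epop KO was uneven, at 78.7, 88.4 and 140 CPM, and Cdkn1a was uneven in the same libraries.

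Libraries of 1 genotype differed together in Cdkn1a and Mdm2 in 6 of 8 genotypes. Each library's log2 CPM was taken relative to the mean of its genotype, so that differences between genotypes play no part, and the 21 pairs of the 7 genes were compared over the 24 libraries. Cdkn1a and Mdm2 had Pearson r = 0.777 and Spearman rho = 0.726, and r = 0.674 without the 2 libraries farthest from the median. Within the 8 libraries of each replicate number r was 0.657, 0.897 and 0.855. Both genes are textbook targets of p53, and whether p53 plays a part here was not tested. The exceptions were Suz12 KO and Pcl1-3 + Jarid2 KO, in which the deviations of the pair ran in opposite directions, judged here and for Trp53 by the sign of the sum of their products over the 3 libraries. Trp53 ran the other way: r was -0.648 with Cdkn1a (rho = -0.619) and -0.626 with Mdm2 (rho = -0.734), and it was negative within each replicate number for both. By genotype, Trp53 ran opposite to Cdkn1a in 7 of 8, the exception being Pcl1-3 + Jarid2 KO. Without the 2 farthest libraries these were -0.6 and -0.575. Cdkn1b was also lower where Trp53 was higher (r = -0.524). Among the 5 Cdk inhibitors r ran from -0.173 (Cdkn2a and Cdkn2c) to 0.503 (Cdkn2a and Cdkn2b). These are descriptions with no test: the 3 deviations of a genotype sum to about 0, libraries share a replicate number, and CPM values share a total. The r of other pairs of identifiers is not given here, so no r can be called particular to these genes.

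**Figure D4:**
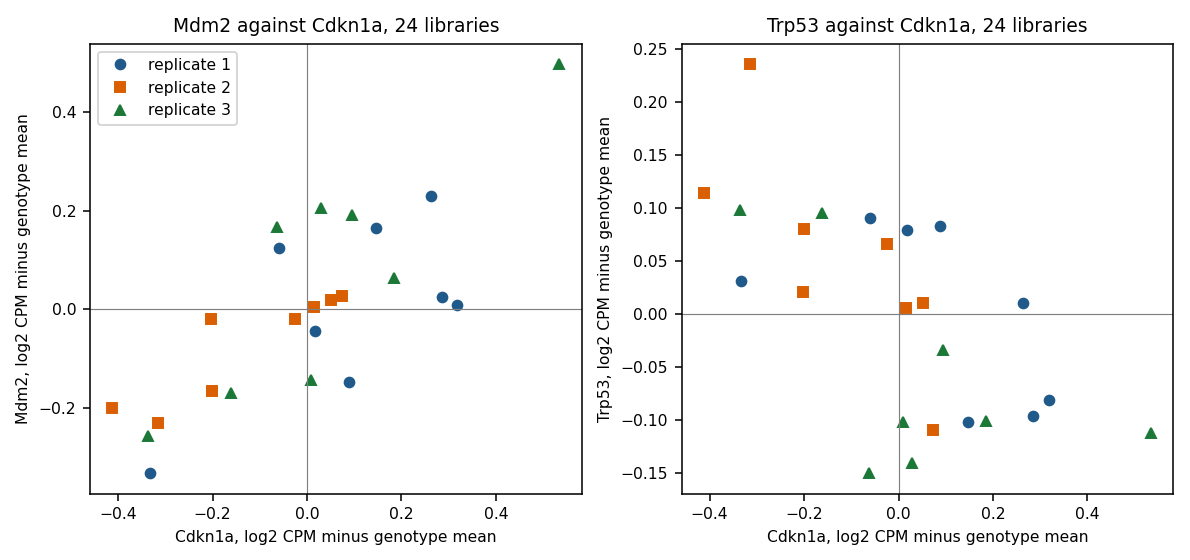
Deviation of each library from its genotype mean in log2 CPM, with Cdkn1a on the horizontal axis and Mdm2 (left) or Trp53 (right) on the vertical axis; each of 24 points is a library and its shape and colour give the replicate number. Mdm2 goes up with Cdkn1a (r = 0.777) and Trp53 goes down (r = -0.648).

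Peaks and RNA can be set side by side for the 7 genes. Of the 2 genes with SUZ12 peaks, Cdkn2c was 2.19-fold higher in Suz12 KO than in WT, and Cdkn2a was 1.10-fold higher, which did not pass the test. Of the 5 without, Cdkn1b fell in Suz12 KO, and Cdkn2b, Cdkn1a, Trp53 and Mdm2 did not pass the test. Trp53 and Cdkn1b, which changed in several accessory knockouts, had none of the 3 proteins' peaks within 1 kb.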

How the data were processed

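RNA was measured in 24 libraries, 3 for each of 8 genotypes, grouped by the genotype label. The submitters' processing notes for RNA name STAR, HTSeq and mm10, and the files the authors deposited hold raw whole-number counts for each gene identifier. Versions, the annotation release and any use of strand are not given in the labels or notes. The deposited peak lists of SUZ12, JARID2 and PCL2 (7796, 4991 and 20003 peaks) give positions in mm10 as their other values; the notes name Trimmomatic and Bowtie2 for these experiments, and name no peak caller or pooling. The remaining 63 samples are chromatin immunoprecipitations, whose own signal was not analysed here.

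Counts were fitted with edgeR 4.0.16 (R 4.3.3): TMM scaling, low counts filtered by edgeR's rule, robust quasi-likelihood dispersions over all 24 libraries with 1 mean per genotype, and Benjamini-Hochberg adjustment over 14650 identifiers with a threshold of 0.05. The fit was tested on simulated data. Alternatives were DESeq2 1.42.0, its size factors in edgeR, no filter, only the genotypes compared, the replicate number as a block, and each library left out. Scaling by library size alone and the tests of a difference between effects were added after seeing the data. The 7 genes are named by a rule that names all of them, and for the 2 with the widest range of genotype means the 2 most similar identifiers are named. The 7 genes and the gene lists were chosen with earlier results of these data known.

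A peak was counted at a gene where it lay within 1 kb of the gene's span in RefSeq (GRCm38.p6); of each list up to 4 genes with a SUZ12 peak are named, in alphabetical order. Same-numbered libraries deviated together: with deviations from genotype means taken over all tested identifiers, 75 of 84 same-number pairs had r over 0.1 (median 0.26) and each of the 24 libraries correlated best with its own number. Every such pair was over 0.1 in 6 of 12 comparisons, and in those the block changed no count of the 7 genes. In some of the others it did, all against WT. With the block, Pcl1-3 KO went from 0 to 2 genes, Jarid2 + Aebp2 KO from 1 to 2 and Pcl1-3 + Jarid2 KO from 2 to 3. Calls over all identifiers rose too, from 1274 to 2895 in Pcl1-3 KO. The main fit has no block. The labels do not say what the number marks.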

Additional observations from a re-analysis of the deposited data

Results flagged for a closer look

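The effect of losing Jarid2 and Aebp2 on Trp53 differed between Pcl1-3 KO and WT cells by 0.65 on the log2 scale (edgeR, adjusted p = 0.0121). This test was added after seeing the data. Trp53 was lower in 3 of 3 Jarid2 + Aebp2 KO libraries than in every WT library, with means of 290 and 410 CPM. In the Pcl1-3 KO background the means were 362 CPM with the loss and 327 CPM without it.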

How the results depend on the processing

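Alternatives moved several counts of genes past the threshold. Against WT, Suz12 KO had 2 genes, 1 with scaling by library size alone, and 1 to 2 with a library left out. Pcl1-3 KO had 0, and 1 with DESeq2's size factors in edgeR, with library size alone, without a filter or with DESeq2. It had 2 with the replicate block or with only the 2 genotypes, and 0 to 1 with a library left out. Pcl1-3 + Epop KO had 2, then 0 with only the 2 genotypes and 0 to 2 with a library left out. Jarid2 + Aebp2 KO had 1, then 3 without a filter, 2 with the replicate block, with only the 2 genotypes or with DESeq2, and 0 to 1 with a library left out. Pcl1-3 + Jarid2 KO had 2, then 1 without a filter and 1 to 3 with a library left out. Pcl1-3 + Jarid2 + Aebp2 KO had 3, and 0 to 3 with a library left out. Pcl1-3 + Jarid2 + Aebp2 + Epop KO had 1, then 2 with library size alone, and against Pcl1-3 + Jarid2 + Aebp2 KO it had 1, with 1 to 2 when a library was left out. For all of these the cause was not tested. Fewer libraries enter a fit when one is left out, and counts went up in some of those fits and down in others.

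The replicate block also brought calls of Cdkn1b and Trp53 in Pcl1-3 KO (adjusted p = 0.0113 and 0.0197, edgeR), Cdkn1b in Jarid2 + Aebp2 KO (0.00603) and Cdkn2c in Pcl1-3 + Jarid2 KO (0.0323), comparisons in which not every same-number pair was over 0.1. Changes of direction were counted only among results that passed the threshold in some setting or were chosen for naming. The 2 found there were those of Cdkn2a, both against WT. With a library left out, its log2 fold change ran from -0.04 to 0.24 in Suz12 KO (-0.0400 without its replicate 3). In Pcl1-3 + Jarid2 + Aebp2 + Epop KO it ran from -0.037 (without its replicate 3) to 0.32. Changes of direction in the remaining results are not given here. Library size alone moved the median log2 fold change of all identifiers from -0.02 to 0.11 in Suz12 KO against WT. The counts of genes near SUZ12 and JARID2 peaks were the same with 5 kb, with gene ends only and with peaks of at least 1 kb; for PCL2 the last gave 2 in place of 3. Counts of 28 to 121 reads per library limit Cdkn2b and Cdkn2c.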
